A study of Mus musculus with 24 samples.

Results

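The genes described here carry the names of the proteins of the cytosolic ribosome, and they were taken from the expression tables by name. A gene was counted when its symbol was Rpl or Rps followed by a number and at most a short suffix, or was Rplp0, Rplp1, Rplp2 or Rpsa, and when its mean level was at least 10 TPM (a level corrected for transcript length and scaled to the library total) over all libraries. Kinases and named pseudogenes were left out. Of 56941 genes in the tables, 89 had such a name and 82 also reached 10 TPM. All 82 were among the 13318 genes tested. Of these, Rps3a2 and Rps3a3 are annotated in GENCODE M39 as processed pseudogenes, and they stayed in because their names meet the rule. RNA came from differentiated muscle grown from C2C12, an established mouse myoblast line that carried ChR2::tdTomato, a light-gated channel fused to a red fluorescent protein, in all 4 groups. The groups were an unstimulated control and 1 Hz, 4 Hz and 10 Hz light stimulation for 30 min per day, with 6 libraries each. The differentiation medium of all groups held IGF-1 (50 ng/ml) and inactivated horse serum at 10%, so the controls received serum and growth factor as well. The cells are a single engineered line, and the study's methods describe the 6 libraries of a group as biological replicates of it.

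The cytosolic ribosome has a small subunit, which reads the mRNA, and a large subunit, which joins the amino acids. Each subunit holds ribosomal RNA and a fixed set of proteins, most of which occur in a single copy. The mRNAs of these proteins characteristically begin with a run of pyrimidines, the terminal oligopyrimidine (TOP) motif, through which mTORC1 and LARP1 control how well they are translated. In skeletal muscle, ribosome number is known as a limit on protein synthesis, and ribosome production is known to accompany growth of muscle after loading. RNA levels as measured here do not report translation.

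The libraries held 4.09 to 15.2 M counts each, with a median of 7.48 M, and the 82 genes took 5.24% to 8.22% of the counts of a library. Markers of differentiated muscle were present in all groups at widely different levels. Over the 24 libraries, Acta1 lay between 2560.4 and 7198 TPM and Mylpf between 2588 and 6972 TPM. Ckm (60.6 to 122 TPM) and Ttn (32.8 to 50.4 TPM) were far lower. All 5 fat cell markers and all 4 bone-like markers were too low to be tested. The summed level of the 24 non-polyadenylated small RNA genes was higher in every control library than in any 1 Hz or 4 Hz library. It was 99.3 to 170 CPM (counts scaled to the library total) in control, 15.5 to 70.0 CPM at 1 Hz, 18.2 to 50.9 CPM at 4 Hz and 38.4 to 275 CPM at 10 Hz. The labels say that low-input samples were ribodepleted and do not say which ones, so this difference and the stimulation cannot be told apart for 1 Hz and 4 Hz. As the libraries are bulk RNA, fewer cells of a type and less RNA per cell cannot be told apart either. Sums over lists of genes were scaled to the library total alone. For CPM of single genes, also in calls of overlap, that total was first multiplied by a normalization factor (TMM).

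To show the kind of sequence that the TOP motif is made of, the longest unbroken run of C and T within 50 bases of the annotated transcript start was read from GRCm39 for the 4 genes with the largest fold changes at 4 Hz whose sequence is printed here (Rpl36, Rps18, Rpl34 and Rpl13a) and for the 2 genes with the lowest (Rps2 and Rplp0). The runs of Rpl34 and Rps2 begin 17 and 5 bases upstream of the annotated start. Those of Rpl36, Rps18, Rplp0 and Rpl13a begin 1, 10, 11 and 18 bases downstream of it. No run begins at the annotated start itself, so the runs shown need not be TOP motifs. Each line gives 30 bases, 5′ to 3′ on the coding strand, with the run in capitals.
Rpl36, chr17:56920345-56920374, plus strand: cagcgcgcctgTCTCTCTagccggaaaggc
Rps18, chr17:34174621-34174650, minus strand: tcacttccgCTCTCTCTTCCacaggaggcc
Rpl34, chr3:130523979-130524008, minus strand: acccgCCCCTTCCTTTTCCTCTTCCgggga
Rpl13a, chr7:44778146-44778175, minus strand: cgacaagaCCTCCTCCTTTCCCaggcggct
Rps2, chr17:24939072-24939101, plus strand: cggcgCCTCCCTCTTCTTCTTCTTCgggag
Rplp0, chr5:115697526-115697555, plus strand: ggaccgcctggTTCTCCTataaaaggcaca

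The runs of Rpl34 and Rps2 were the longest of the 6, at 20 bases each. The 6 genes were picked by their fold changes, and a link between run length and fold change was not tested. Over the whole family, 46 of 82 genes (56.1%) had a run of at least 8 bases near the annotated start, against 33.3% of the 11906 other protein-coding genes tested. The length of 8 was set after the sequences were seen. Stricter definitions separated the family less or were rarely met: a run of at least 5 bases that reached to within 5 bases of the annotated start was found in 29 genes (35.4%) against 32.3% of the others, and a C at the start followed by at least 4 pyrimidines in 7 genes (8.54%) against 4.12%. The median log2(fold change) at 4 Hz was 0.31 in the genes with such a run and 0.29 in the 36 without. The annotated start is that of GENCODE M39 and need not be the start used in these cells, which was not measured.

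Ribosomal protein genes had further features in common. Their canonical transcripts had a median length of 1049 nt and 5 exons, against 3492 nt and 9 exons for the other protein-coding genes tested. Within the bounds of 30 of the 82 genes (36.6%), on the same strand, lay 59 annotated small nucleolar RNAs. Such RNAs guide the modification of ribosomal RNA. Of the other protein-coding genes, 1.51% were hosts by the same rule. Rpl13a, on chromosome 7, alone held 4. Hosts and non-hosts had similar medians at 4 Hz, 0.29 and 0.32.

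Levels differed widely within the family even though most of the proteins assemble in equal numbers. By mean TPM over all libraries, the most abundant were Rpl41 (5930.3 TPM), which encodes the shortest protein of the large subunit, Rps27 (5565 TPM) and Rps14 (4706 TPM) of the small subunit. The least abundant members were Rpl7l1 (161 TPM) and Rpl22l1 (203 TPM), paralogs of Rpl7 and Rpl22, and Rpl29 (253 TPM). Just outside the limit of 10 TPM was Rpl3l, a muscle paralog of Rpl3, at 8.24 TPM, followed by Rpl32l at 4.88 TPM. The core proteins used to mark the family were well within it, with Rplp0 at 2529.9 TPM and Rps3 at 2056 TPM.

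Taken over all 82 genes, the share of counts was similar in control and 1 Hz and higher on average at 4 Hz and 10 Hz. The share had a mean of 6.21% ± 0.573 (SD, n = 6) in control and a range of 5.24% to 6.77%. At 1 Hz it was 6.26% ± 0.439 (SD, n = 6), with a range of 5.81% to 6.92%. At 4 Hz it was 7.16% ± 0.498 (SD, n = 6), from 6.49% to 7.75%. At 10 Hz it was 7.01% ± 0.811 (SD, n = 6), from 5.96% to 8.22%. All stimulated ranges overlapped that of control. On the TPM scale, the means were 17.3%, 17.4%, 18.6% and 18.4% in the same order, so that the gap between groups was smaller relative to the level.

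**Figure D1:**
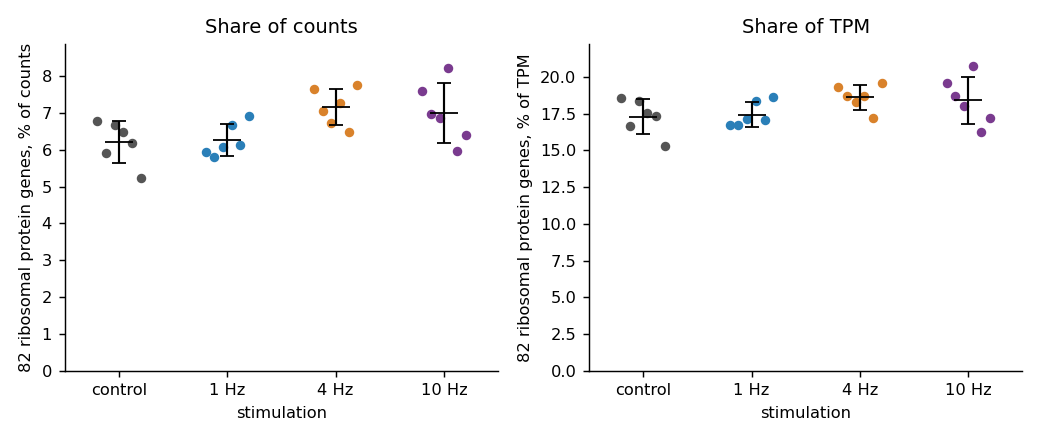
Share of all counts (left) and of all TPM (right) held by the 82 ribosomal protein genes, in percent, with 1 point per library and the mean ± SD of 6 libraries per group. The 4 Hz libraries lie between 6.49% and 7.75% of counts and overlap the upper part of the control range, which ends at 6.77%.

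The comparison of 4 Hz with control asked how the middle stimulation frequency changed the transcriptome, and it gave the largest number of upregulated ribosomal protein genes. Of 82 genes, 52 were upregulated and 0 downregulated (edgeR quasi-likelihood test, Benjamini-Hochberg adjusted p below 0.05), against 19.2% and 20.2% of all genes tested. The same 0 downregulated genes were found at an unadjusted p below 0.05 and with DESeq2, which called 55 upregulated. The median log2(fold change) of the family was 0.30, with a range of -0.15 to 0.74, and 80 of 82 values were positive, while the median of all genes tested was -0.01. Changes were small: 10 of the 82 (12.2%) were called with a log2(fold change) above 0.5, the limit used by the study, near the 10.5% of all genes tested. In 26 of 82 genes all 4 Hz libraries lay above all control libraries, as in 8.68% of genes tested. Of the 52, 45 passed whichever of the 24 libraries was left out.

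Both subunits took part. In the large subunit 29 of 43 genes were upregulated, with a median log2(fold change) of 0.29, and in the small subunit 22 of 31, with a median of 0.35. None of the 3 genes of the P-stalk, the flexible arm of the large subunit that recruits elongation factors, passed the test. Rplp0, its base, had 1653, 1959 and 2122 CPM (lowest, median and highest of 6 libraries) in control and 1498, 1871 and 2257 CPM at 4 Hz, and the control range lay within the 4 Hz range. Its log2(fold change) was -0.05 ± 0.11 (SE). The acidic stalk proteins Rplp1 and Rplp2 had log2(fold change) values of 0.10 ± 0.16 and 0.20 ± 0.14 (SE). Rpsa, the laminin-binding protein of the small subunit, did not pass either, at 0.25 ± 0.12 (SE) with an edgeR adjusted p of 0.102.

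The largest change was that of Rpl36, a small protein of the large subunit. It had 271, 335 and 403 CPM in control and 456, 502 and 848 CPM at 4 Hz, so that all 6 stimulated libraries lay above the highest control, with 1 far above the rest. The log2(fold change) was 0.74 ± 0.18 (SE, edgeR adjusted p = 0.00174). Rps18, which sits in the head of the small subunit, had 562, 682 and 759 CPM in control and 889.9, 1038 and 1287 CPM at 4 Hz. Its groups did not overlap, and its log2(fold change) was 0.69 ± 0.11 (SE, edgeR adjusted p = 3e-05).

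Rpl17, which lines the exit tunnel of the large subunit, rose from 763, 886 and 1105 CPM to 1304, 1457 and 1564 CPM. Every 4 Hz library exceeded every control, and the log2(fold change) was 0.66 ± 0.09 (SE, edgeR adjusted p = 4.85e-06). Rpl34, also of the large subunit, rose from 294, 378 and 398 CPM to 470.5, 529 and 614 CPM, by 0.58 ± 0.10 (SE, edgeR adjusted p = 0.000103). Rps3, a protein of the mRNA entry site, had 975, 1185 and 1391 CPM in control and 1531, 1729 and 1798 CPM at 4 Hz. The groups did not overlap, and the increase was 0.54 ± 0.09 (SE, edgeR adjusted p = 3.42e-05). At the other end, Rps2 of the same entry site had 679, 727 and 813 CPM in control and 552, 669 and 744 CPM at 4 Hz. The groups overlapped, and its log2(fold change) of -0.15 ± 0.09 (SE) had an edgeR adjusted p of 0.164. Of the 3 most abundant genes, Rpl41 (0.42 ± 0.14, SE) and Rps14 (0.28 ± 0.10, SE) passed the test and Rps27 (0.21 ± 0.09, SE) did not. Rpl29, the least abundant core gene, was upregulated by 0.33 ± 0.08 (SE).

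**Figure D2:**
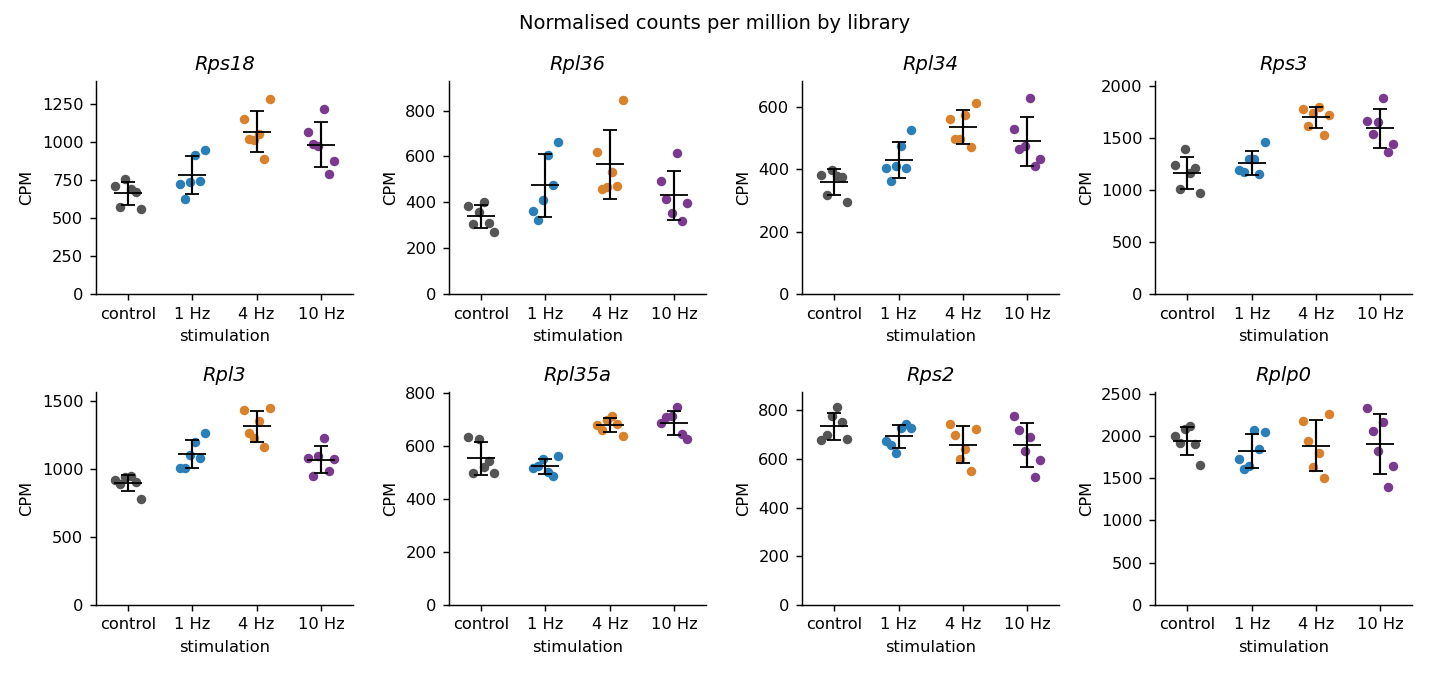
Normalised CPM of 8 ribosomal protein genes in each of the 24 libraries, with the mean ± SD of 6 libraries per group. Rps18, Rpl36, Rpl34, Rps3, Rpl3 and Rpl35a show no overlap of 4 Hz and control libraries, whereas Rps2 and Rplp0 overlap in all groups.

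How many genes passed at 4 Hz depended strongly on how values were scaled. With an offset for transcript length in the edgeR fit, 18 were upregulated and 2 downregulated and the median was 0.10. With limma on log2(TPM + 1), 19 were upregulated and 3 downregulated and the median was also 0.10, but that of all genes was -0.16 on this scale. With total count scaling the family's median was 0.20 and that of all genes -0.11. With the small RNA level as a covariate, which did not overlap between control and 4 Hz libraries, 4 genes remained called while the median was 0.27. Those were Rpl17, Rpl9, Rps18 and Rps3, and the same 4 were called in each of the 12 alternative settings of scaling, filtering and model. Leaving the covariate aside, 14 of the 52 were called in all the other settings, Rpl36, Rpl34, Rpl13a, Rpl3, Rpl5 and Rps6 among them.

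In genes outside the family, the fold change differed with transcript length, though not in the same direction in all comparisons. The tested genes were ordered by transcript length and cut into 5 equal classes, and 61 of the 82 genes fell in the shortest class, with canonical transcripts of 96 to 1675 nt. In that class, the 2600 other genes had a median log2(fold change) of 0.10 at 4 Hz, and the 61 ribosomal protein genes 0.29. At 10 Hz the medians were 0.10 and 0.21, and at 1 Hz -0.04 and 0.08. In the longest class the other genes had medians of -0.05 at 4 Hz, -0.07 at 10 Hz and 0.06 at 1 Hz. In the second shortest class, 12 ribosomal protein genes had a median of 0.29 at 4 Hz, and the other genes -0.02. The part of length in the result was not tested further.

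**Figure D3:**
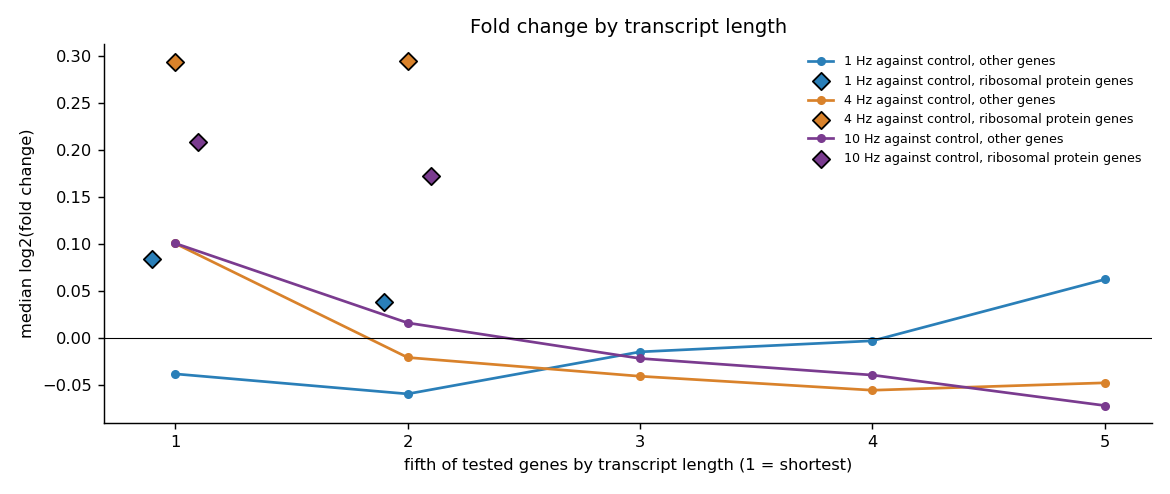
Median log2(fold change) against control in 5 equal classes of tested genes ordered by transcript length, with lines for all other genes and diamonds for ribosomal protein genes where a class holds at least 10 of them. In the shortest class the 4 Hz diamond stands at 0.29 and the line at 0.10.

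At 10 Hz, the highest frequency, 14 of 82 genes were upregulated and 0 downregulated, against 2.67% and 2.22% of all genes tested. No gene was downregulated at an unadjusted p below 0.05 or with DESeq2, which called 26 upregulated. The median log2(fold change) was 0.20, and 78 of 82 values were positive. A single gene, Rps18, exceeded 0.5, where 1.24% of all genes tested did, and in 5 genes the libraries did not overlap, against 1.28% of genes tested. The large subunit had 8 of the 14 and the small subunit 6.

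Rps18 again led, with 788, 981 and 1215 CPM at 10 Hz, all above control, and was upregulated by 0.57 ± 0.11 (SE, edgeR adjusted p = 0.00315). Rpl13a, known also as a part of the complex that silences translation after interferon, had 721, 897 and 1047 CPM in control and 1056, 1182 and 1568 CPM at 10 Hz. Its groups just failed to overlap, and the log2(fold change) was 0.48 ± 0.10 (SE, edgeR adjusted p = 0.00597). Rpl34 was at 411, 469 and 628 CPM, all above the highest control, and its log2(fold change) was 0.45 ± 0.10 (SE, edgeR adjusted p = 0.0107). Rps3 was at 1369, 1595 and 1885 CPM, with 5 of 6 libraries above the highest control, and was upregulated by 0.45 ± 0.09 (SE, edgeR adjusted p = 0.00341). Rpl36 did not pass here, at 0.35 ± 0.18 (SE). Rps2 stood at -0.16 ± 0.09 (SE) and again did not pass. Rpl13a, Rpl34, Rpl5 and Rps18 were called in each of the 12 alternative settings. With a fit of only the 12 libraries compared, 6 genes were called, and with the length offset or on TPM, 5. Without control replicate 2 or without 10 Hz replicate 4, 8 passed.

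At 1 Hz few genes passed. Of 82, 6 were upregulated and 0 downregulated, which is a smaller share than the 18.1% and 17.3% of all genes tested. At an unadjusted p below 0.05 1 gene was lower, and with DESeq2 none was. The median log2(fold change) was 0.09, and on the TPM scale it was -0.01. As the median of all genes was negative on the TPM scale at 4 Hz, this value alone does not place the family against other genes. The length offset gave 12 higher and 1 lower, and both TPM and total count scaling gave 1 higher and 2 lower. Rpl36, Rpl3, Rpl17 and Rpl34 were among the 6 genes called without these changes of scaling. Rpl36 was at 323, 443 and 662 CPM, with 4 of 6 libraries above the highest control, and its log2(fold change) was 0.48 ± 0.18 (SE, edgeR adjusted p = 0.0344). Rpl17 and Rpl34 were upregulated by 0.28 ± 0.09 and 0.27 ± 0.10 (SE). The count was 2 without 1 Hz replicate 6, and 3 without 1 Hz replicate 4 or control replicate 2, 5 or 6. Of the 6 genes, 2 were called whichever library was left out, and Rpl36, Rpl17 and Rpl34 were not among these.

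Rpl3, which lies next to the peptidyl transferase center of the large subunit, was the only member with no overlap between 1 Hz and control, a pattern seen in 7.22% of genes tested. It had 781, 911 and 949.8 CPM in control and 1004, 1093 and 1261 CPM at 1 Hz, and the log2(fold change) was 0.31 ± 0.08 (SE, edgeR adjusted p = 0.0031). At 4 Hz the gene reached 1159.8, 1305 and 1445 CPM, also above every control. At 10 Hz it had 949.7, 1078 and 1228 CPM, a log2(fold change) of 0.25 ± 0.08 (SE) that did not pass. With the small RNA covariate, which did not overlap between control and 1 Hz either, all 6 calls at 1 Hz were lost. The median was then 0.06, and the log2(fold change) of Rpl3 was 0.14.

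**Figure D4:**
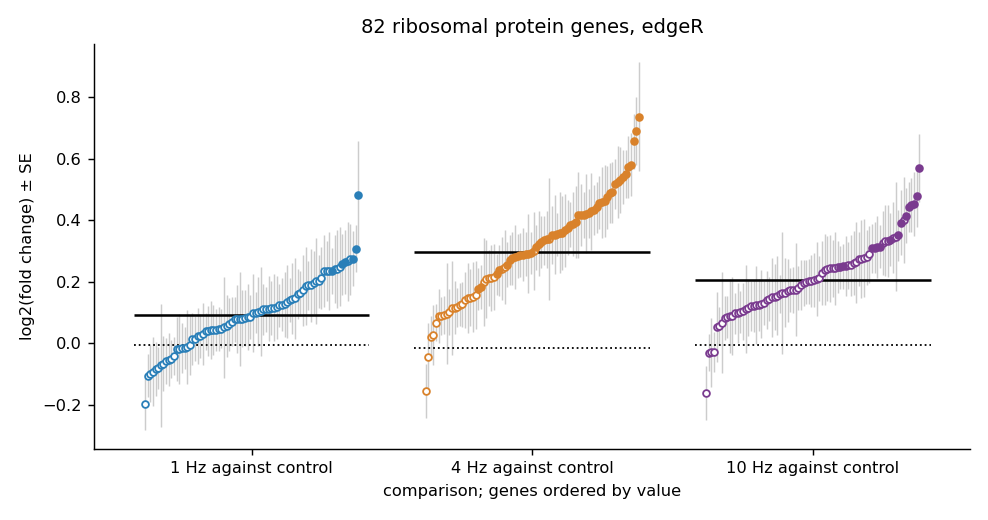
log2(fold change) ± SE of the 82 ribosomal protein genes in each comparison with control, ordered by value, with filled points for an adjusted p below 0.05. Solid lines mark the family's medians of 0.09, 0.30 and 0.20, and dotted lines mark the medians of all genes tested, near 0.

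The frequencies were also compared directly. Between 4 Hz and 1 Hz, 23 of 82 genes were higher at 4 Hz and 0 lower, against 5.71% and 6.56% of all genes tested, with a median log2(fold change) of 0.21. No gene was lower at an unadjusted p below 0.05 or with DESeq2. Rps18 differed by 0.45 ± 0.11 (SE, edgeR adjusted p = 0.00856), with 5 of 6 libraries at 4 Hz above all 1 Hz libraries. Rpl9 of the large subunit had 1325, 1514 and 1669 CPM at 1 Hz and 1941, 2084 and 2146 CPM at 4 Hz, and the groups were well apart. Its log2(fold change) was 0.45 ± 0.08 (SE, edgeR adjusted p = 0.000888). The small RNA level overlapped between these groups, and all 23 calls held with it as a covariate. With the length offset 3 were called, and without 1 Hz replicate 5, 14.

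Between 10 Hz and 1 Hz, 19 genes were higher at 10 Hz and 0 lower, against 17.7% and 18.5% of all genes tested, and neither an unadjusted p below 0.05 nor DESeq2 gave any lower gene. The share of 23.2% was thus close to the background. Rpl7l1, a paralog of Rpl7 known from assembling large subunits, had 129, 154 and 187 CPM at 1 Hz and 204, 215 and 233 CPM at 10 Hz, without overlap. It was higher by 0.47 ± 0.09 (SE, edgeR adjusted p = 0.000186). Rpl35a of the large subunit rose from 487, 519 and 561 CPM to 627, 698 and 746 CPM, by 0.39 ± 0.07 (SE, edgeR adjusted p = 0.000103). Both were called in the alternative settings other than the small RNA covariate, with which all 19 calls were lost. With it the family's median was 0.13, and Rpl7l1 and Rpl35a stood at 0.30 and 0.35. Without 10 Hz replicate 4, 11 genes passed, and without 1 Hz replicate 2 or 1 Hz replicate 5, 12 passed. With the length offset, 6 genes were higher and 8 lower.

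When 10 Hz was set against 4 Hz, 2 genes were lower at 10 Hz and 0 higher, against 11.9% and 10.9% of all genes tested. At an unadjusted p below 0.05, 1 gene was higher and 10 were lower, and DESeq2 gave 0 higher and 5 lower. By sign alone 69 of the 82 were lower at 10 Hz. Rpl3 fell by 0.30 on the log2 scale (SE 0.08, edgeR adjusted p = 0.00698), with 5 of 6 libraries at 10 Hz below all 4 Hz libraries. Rpl36a of the large subunit went from 507, 540.5 and 584 CPM to 405, 476 and 492 CPM, with no overlap, and fell by 0.22 (SE 0.07, edgeR adjusted p = 0.0333). The median of the family was -0.10. Although 52 genes passed against control at 4 Hz and 14 at 10 Hz, the direct test called 2 genes between these frequencies. That count was 7 without 10 Hz replicate 4, 5 without 4 Hz replicate 5, 4 without control replicate 2, 1 Hz replicate 1 or 4 Hz replicate 2, and 1 without 4 Hz replicate 1 or 10 Hz replicate 3 or 5.

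Some ribosomal proteins have paralogs, and some of these may replace them in the ribosome. Rpl7l1, known from assembling large subunits, is not taken here as a replacement of Rpl7. In all, 5 pairs had enough counts to follow the ratio of the paralog to its partner within a library. Over 30 comparisons (5 pairs by 6 contrasts), 4 passed an adjusted p of 0.05 in 2-sided exact permutation tests of 6 against 6 libraries, where the smallest possible p is 0.00216. Counts were not corrected for length, so the ratios compare groups and not the genes of a pair.

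Rpl7l1 made up 10.5%, 11.8% and 12.9% of the pair's counts in control (lowest, median and highest library), 9.17%, 10.6% and 12.5% at 1 Hz, 10.7%, 11.5% and 12.8% at 4 Hz, and 12.8%, 13.1% and 14.6% at 10 Hz. The 10 Hz libraries lay above all those of 1 Hz and just above all those of 4 Hz, and overlapped control at its upper end. The log2 ratio to Rpl7 was higher at 10 Hz by 0.22 against control (exact permutation test, adjusted p = 0.0433), by 0.38 against 1 Hz (exact permutation test, adjusted p = 0.0325) and by 0.22 against 4 Hz (exact permutation test, adjusted p = 0.0325). Rpl36al, whose protein is nearly the same as that of Rpl36a, took 20.9%, 22.5% and 23.2% of its pair at 4 Hz and 23.0%, 23.6% and 24.3% at 10 Hz. That ratio was higher at 10 Hz than at 4 Hz by 0.12 (exact permutation test, adjusted p = 0.0487). The share of Rpl36al was 22.7%, 24.2% and 24.9% in control and 20.3%, 20.9% and 25.7% at 1 Hz. Against control its log2 ratio differed by -0.03 at 10 Hz, -0.15 at 4 Hz and -0.19 at 1 Hz, and none of these passed. Of the 4 differences that passed, none did so when the ratio was taken from TPM, with values of 0.24, 0.37, 0.25 and 0.12. Leaving out 10 Hz replicate 1, 2, 3, 5 or 6 also left no comparison below 0.05, but with 5 against 6 libraries the smallest possible p rises to 0.00433. When any single library was left out, the 4 differences were 0.19 to 0.26, 0.34 to 0.44, 0.19 to 0.25 and 0.10 to 0.14, and without 1 Hz replicate 1 there were 8 comparisons below 0.05.

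The other pairs showed no comparison past the threshold. Rps27l, a target of p53, took 16.1% to 21.9% of its pair with Rps27 in control and 17.1% to 24.3% at 4 Hz. As a single gene, Rps27l was upregulated at 4 Hz by 0.47 ± 0.10 (SE, edgeR adjusted p = 0.000729). Rpl22l1 took 6.35% to 12.9% of its pair over all libraries, with libraries of the same group spread over most of that range. Rpl3l, known from adult striated muscle, took less than 1% of its pair with Rpl3 in every library. Counts of Rpl3l were 29 to 126 per library, and the gene was at 5.66 to 9.26 TPM in control and 7.73 to 12.6 TPM at 4 Hz. Rpl39l and Rpl10l, known from the testis, were at or near 0.

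**Figure D5:**
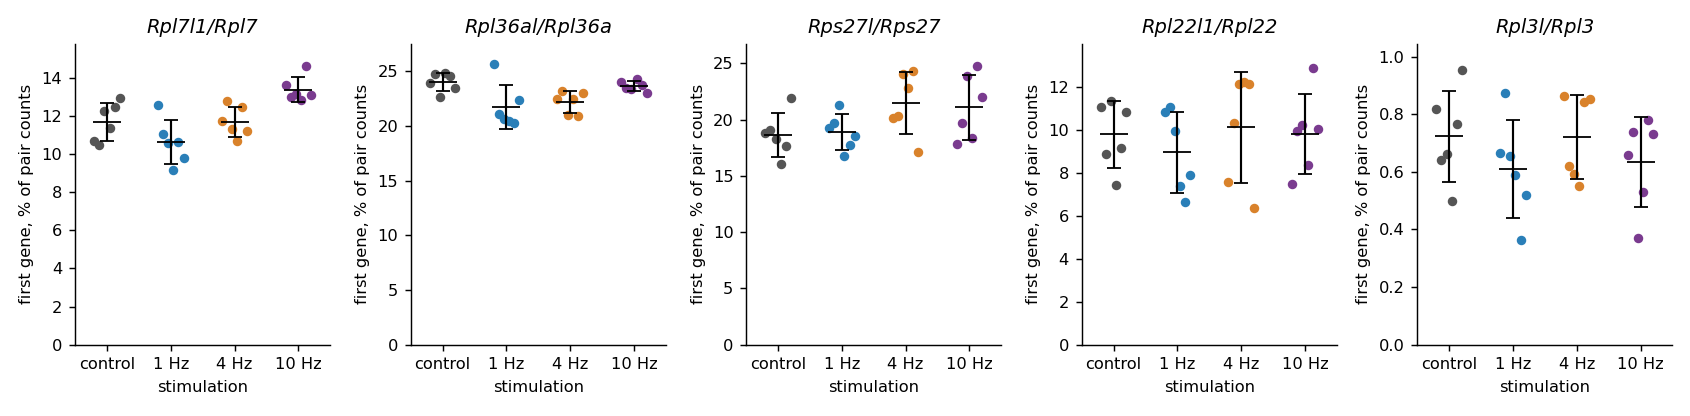
Share of the first-named gene in the counts of 5 paralog pairs, in percent, with 1 point per library and the mean ± SD of 6 libraries per group. Rpl7l1 lies between 12.8% and 14.6% at 10 Hz, above all 1 Hz and 4 Hz libraries.

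Reads of ribosomal protein genes can fall on their many processed pseudogenes. Named pseudogenes of the family took 4.61% to 5.27% of the counts shared by genes and pseudogenes in a library. Of the 68 that could be tested, 16 were higher at 4 Hz, a share near the 19.2% of all genes tested. At the same time 0 were lower, against 20.2% of all genes tested. The median log2(fold change) of these pseudogenes was 0.37, against 0.30 for the family. Rps3a2 and Rps3a3, single-exon copies of Rps3a1 that carry gene names, held 52.9% to 61.5% of all Rps3a counts, so the values of these 3 genes are uncertain. Without members that share reads with such copies, a setting chosen after seeing the data, no count of upregulated genes changed by more than 1.5 times. This setting dropped only these 3 genes from the same fit, so large counts could hardly change. It did not address reads shared with other pseudogenes.

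Genes around the ribosome were followed in lists, whose counts stand beside the shares of all genes tested. These were 18.1% higher and 17.3% lower at 1 Hz, 19.2% and 20.2% at 4 Hz, and 2.67% and 2.22% at 10 Hz. Of the 5 ribosomal protein genes whose names fall outside the rule, 3 were upregulated at 4 Hz. Fau, a fusion of a ubiquitin-like protein with a small subunit protein, rose by 0.49 ± 0.13 (SE), and Rack1, the scaffold on the small subunit, by 0.29 ± 0.11 (SE). Other translation genes with TOP mRNAs moved both ways at 4 Hz, with 7 of 20 upregulated and 2 downregulated. Eef1a1, the factor that delivers aminoacyl-tRNA, went from 7852 ± 354 to 12892 ± 1192 CPM (SD, n = 6) and rose by 0.72 ± 0.08 (SE), and Btf3, of the nascent chain complex, rose by 0.47 ± 0.07 (SE). Eif4b, an initiation factor, fell by 0.20 (SE 0.05), and Pabpc1, the poly(A)-binding protein, fell by 0.16 (SE 0.07). At 1 Hz 4 of the 20 were upregulated, with Eef1a1 at 0.53 ± 0.08 and Eef2 at 0.38 ± 0.11 (SE), and at 10 Hz 3 were.

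Ribosome assembly factors did not share one direction at 4 Hz. Of 61, 13 were upregulated and 7 downregulated, with a median log2(fold change) of 0.02, so the upregulated share was near that of all genes and the downregulated share below it. Rrs1 and Nhp2, needed for the large subunit and for small nucleolar particles, rose by 0.56 ± 0.11 and 0.45 ± 0.10 (SE), whereas Utp4 of the small subunit processome fell by 0.44 (SE 0.10). At 1 Hz 6 were upregulated and 7 downregulated, and at 10 Hz 3 were upregulated. Between 10 Hz and 1 Hz, 21 were higher and 4 lower, against 17.7% and 18.5% of all genes tested. Of 26 genes for RNA polymerases I and III, 4 were upregulated and 6 downregulated at 4 Hz. Ubtf, which activates ribosomal RNA genes, rose from 79.1 ± 5.8 to 124.6 ± 13.6 CPM (SD, n = 6), and Polr3a, the largest subunit of RNA polymerase III, fell from 41.2 ± 2.1 to 26.6 ± 2.5 CPM (SD, n = 6).

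Upstream regulators were mixed at 4 Hz and mostly higher at 1 Hz. Of 29 tested genes for mTORC1 and Myc, 10 were upregulated and 2 downregulated at 1 Hz, 9 and 6 at 4 Hz, and 1 and 2 at 10 Hz. Their median log2(fold change) was 0.28 at 1 Hz, 0.02 at 4 Hz and -0.03 at 10 Hz. Between 10 Hz and 1 Hz, 2 were higher and 14 lower, against 17.7% and 18.5% of all genes tested, with a median of -0.21. Myc, which drives transcription of ribosome genes, had 53.2 ± 7.0 CPM in control and 87.7 ± 12.4 CPM (SD, n = 6) at 1 Hz, where it rose by 0.72 ± 0.12 (SE). At 4 Hz, where most ribosomal protein genes passed, Myc fell by 0.43 (SE 0.12), and at 10 Hz its value of -0.19 ± 0.12 (SE) did not pass. Ddit4l and Castor1, both inhibitors of mTORC1, moved oppositely at 4 Hz, by 1.05 ± 0.21 and -1.10 ± 0.26 (SE).

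Most muscle markers were also higher at 4 Hz than in control. At 4 Hz 7 of 10 were upregulated, and their summed level was 12995 to 19374 CPM against 9445 to 11561 CPM in control. At 1 Hz 7 of 10 were upregulated as well, and at 10 Hz 3. Between 4 Hz and 1 Hz, 0 were higher and 0 lower, against 5.71% and 6.56% of all genes tested. Between 10 Hz and 1 Hz, 0 were higher and 4 lower, against 17.7% and 18.5%. Between 10 Hz and 4 Hz, 0 were higher and 5 lower, against 10.9% and 11.9%. Of 6 markers of cycling myoblasts, 2 were higher and 2 lower at 4 Hz, with summed levels of 22.8 to 45.6 CPM, a range that contains that of control. Of 4 markers of reserve cells, 2 were higher and 1 lower, with 458 to 499 CPM against 396 to 483 CPM. Fat cell markers summed to at most 1.11 CPM and bone-like markers to at most 1.80 CPM in any library. The part of muscle differentiation in the change of ribosomal protein genes was not tested.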

How the data were processed

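RNA was measured by RNA-seq in 24 cultures, 6 per condition, with groups from the sample titles. The authors deposited estimated counts of each gene, without normalization, and TPM values, made with STAR and Salmon against GRCm39 in the nf-core/rnaseq pipeline. Per the study's methods the library kit was directional, and the strand option used in counting is not given in the sources used here. Estimated counts were rounded. Genes were filtered with filterByExpr and fitted in edgeR 4.0.16 (TMM, quasi-likelihood test, all 24 libraries, R 4.3.3), and p-values were Benjamini-Hochberg adjusted over 13318 genes. limma 3.58.1 and DESeq2 1.42.0 served as alternatives, with a pseudocount of 1 or 0.1 on TPM. Fold changes on log2(TPM + pseudocount) understate low genes. Exact permutation tests used Python with a pseudocount of 0.5 counts in paralog ratios. The small RNA covariate was the log2 level of 24 genes. Sequences and annotation came from GRCm39 and GENCODE M39. Members and lists were chosen with earlier results of these data known. Named genes were the P-stalk, Rps3 and Rpsa, paralog pairs, the 3 highest and lowest by TPM, the 4 largest changes in each direction against control and 2 between frequencies, and 2 in each direction per list. Rpl13a at 4 Hz, Rpl5 and other genes named as called in all settings were chosen after their values were seen. No 2 replicates were alike within counting error. The edgeR, limma and DESeq2 fits were run on simulated counts for 4 Hz against control, with limits set for edgeR only. Other steps were not tested on simulated data.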

Additional observations from a re-analysis of the deposited data

Results flagged for a closer look

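In 128 groups of 6 libraries, the highest or lowest library was set against the others by Dixon's ratio of the gap to the range, at its 95% critical value. Chance flags about 1 in 20 groups, and 3 stood out here. In control, Rpl29 had 79.7 CPM in its lowest library, with the next at 92.8 CPM. At 4 Hz, the small RNA genes reached 50.9 CPM in 1 library, with the next at 30.1 CPM. In control, pseudogenes took 4.89% of the counts they share with ribosomal protein genes in 1 library, with the next at 5.15%.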

How the results depend on the processing

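Among the settings other than leaving out a library, the number of upregulated ribosomal protein genes moved by over 1.5 times as follows. With the gene length offset, 12 were higher and 1 lower at 1 Hz, 18 and 2 at 4 Hz, 5 and 1 at 10 Hz, 3 higher at 4 Hz against 1 Hz, and 6 higher and 8 lower at 10 Hz against 1 Hz, with medians of 0.0994 at 4 Hz, 0.0527 at 10 Hz and 0.0133 at 4 Hz against 1 Hz. With limma on log2(TPM + 1), 1 was higher and 2 lower at 1 Hz, 19 and 3 at 4 Hz, 5 and 1 at 10 Hz, 9 higher at 4 Hz against 1 Hz, 12 higher at 10 Hz against 1 Hz, and 2 higher and 1 lower at 10 Hz against 4 Hz, with medians of 0.101 at 4 Hz and 0.0705 at 10 Hz. A pseudocount of 0.1 gave 19 and 4 at 4 Hz and 10 higher at 4 Hz against 1 Hz, and no filter gave 17 and 4 at 4 Hz, with medians of 0.101 at 4 Hz under both and of 0.0706 and 0.0705 at 10 Hz. With the small RNA covariate, the counts were 0 at 1 Hz, 4 at 4 Hz, 0 at 10 Hz against 1 Hz and 0 lower at 10 Hz against 4 Hz, with medians of 0.06, 0.27, 0.13 and -0.08. Total count scaling gave 1 higher and 2 lower at 1 Hz, 1 lower at 4 Hz, and 1 higher and 1 lower at 10 Hz against 4 Hz. The limit of 0.5 on the log2(fold change) left 0 at 1 Hz, 10 at 4 Hz, 1 at 10 Hz and 0 between frequencies. DESeq2 called 26 at 10 Hz and 5 lower at 10 Hz against 4 Hz, its size factors in edgeR 4 lower, no filter on counts 14 and 7 higher against 1 Hz at 4 and 10 Hz and 1 lower at 10 Hz against 4 Hz, and 12 libraries alone 6 at 10 Hz. The causes were not tested.

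Leaving out 1 library at a time gave 2 to 9 upregulated genes at 1 Hz, with 0 to 1 downregulated, 45 to 57 at 4 Hz, 8 to 17 at 10 Hz, 14 to 25 at 4 Hz against 1 Hz, 11 to 22 at 10 Hz against 1 Hz, and 1 to 7 lower at 10 Hz against 4 Hz. The medians kept their direction, at 0.05 to 0.13, 0.26 to 0.34, 0.17 to 0.25, 0.17 to 0.24, 0.06 to 0.15 and -0.15 to -0.06 in the order 1 Hz, 4 Hz and 10 Hz against control, 4 Hz and 10 Hz against 1 Hz, and 10 Hz against 4 Hz. Of the fold changes of named genes, 413 kept the call when a library was left out and 19 lost it, against 219 and 33 under the other settings, and none reversed.

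The ratio of Rpl7l1 to Rpl7 ranged over 0.19 to 0.26 (10 Hz against control), 0.34 to 0.44 (against 1 Hz) and 0.19 to 0.25 (against 4 Hz) when a library was left out, and that of Rpl36al to Rpl36a over 0.10 to 0.14, with 0 to 8 comparisons past the threshold. From TPM they were 0.24, 0.37, 0.25 and 0.12, with 0 past it. With the replicate number as a block, they were 0.22, 0.38, 0.22 and 0.12, with adjusted p-values of 0.234 to 0.352 from exact sign flips and 0 past it. The smallest p that sign flips of 6 pairs allow is 0.0312, so this test says nothing about stability.

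Replicate numbers did not pair the libraries. Correlations of deviations from the group means ran from -0.18 to 0.36 over 36 pairs, and 5 of 24 libraries correlated best with their own number. With the replicate block, 7, 53 and 16 genes were upregulated at 1, 4 and 10 Hz, 27 and 20 at 4 and 10 Hz against 1 Hz, and 3 downregulated at 10 Hz against 4 Hz. Counts of 29 to 126 per library limit the precision for Rpl3l.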
